A study of Bos taurus with 24 samples.

Results

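Follicles with the most and the least RNA of AMH (anti-Müllerian hormone) were compared across all other measured genes. The 16 bovine follicles of the series were ranked on their own AMH level, and the 5 highest and the 5 lowest were taken, so 10 of 16 follicles are members and 6 in between are not. The groups were therefore selected on a measured value: the labels give each follicle an identifier and name no treatment, stage, dominance or hormone level. AMH itself is left out of every result.

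AMH is a hormone of the TGF-beta family made by granulosa cells, the cells that line the follicle and surround the oocyte. It is known to be high in small growing follicles and to decline as a follicle becomes large and oestrogenic, and it lowers the response of granulosa cells to FSH. It acts through its own receptor AMHR2, which works with type I receptors shared with the BMPs and with the SMAD proteins downstream of them, whose usual targets are the ID genes.

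Each heifer gave its largest follicle, and all 16 follicles measured 8 to 12 mm across. Both groups share this source, and each follicle is a different animal. Total RNA of 2 follicles at a time (5 µg each) was hybridised to 24 two-colour arrays, and every follicle was on 3 arrays with both dyes in use. The RNA came from whole follicles, so fewer cells of a type and less RNA per cell cannot be told apart. A level is the fitted log2 value of a follicle relative to the mean of all 16, with a term for dye bias. Base 2 was assumed, and natural logs cannot be told apart from it. The ratio was taken as Cy5 over Cy3, which the order of dyes in the labels makes likely. With the inverse ratio every level would change sign and the AMH groups would swap names, but each gene's difference relative to AMH would stay the same. Each array held 16094 to 17028 values. The number of arrays limits the precision.

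AMH was represented by 1 array feature. It varied among the 16 follicles beyond array error (limma-moderated F test, adjusted p = 0.0169), with an SD of 0.486 between follicles against an array error SD of 0.330. The AMH-high follicles were 46 at 0.92, 8 at 0.89, 31 at 0.37, 861 at 0.36 and C32 at 0.32. The AMH-low follicles were 27 at -0.39, 26 at -0.49, C10 at -0.55, 33 at -0.55 and C35 at -0.58. Follicles 46 and 8 stood well above the other 3 AMH-high follicles, while the AMH-low follicles lay close together. The group means were 0.57 ± 0.31 in AMH-high and -0.51 ± 0.075 in AMH-low follicles (SD, n = 5 each), values that the choice of groups fixes.

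The boundaries of the groups were not sharp. C32, the last follicle inside the AMH-high group, lay 0.112 above C22, the first outside it at 0.20. Follicle 27, the last inside the AMH-low group, lay 0.108 below C26, at -0.28. Both gaps were smaller than the SE of a single level, which was 0.20 to 0.22 over 3 arrays. When 1 array at a time was left out, 8 to 10 of the 10 follicles kept their group. Follicles 46, 8, 26, 33 and C35 did so in 24 of 24 fits, follicle C32 in 19 and follicle 27 in 18.

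**Figure D1:**
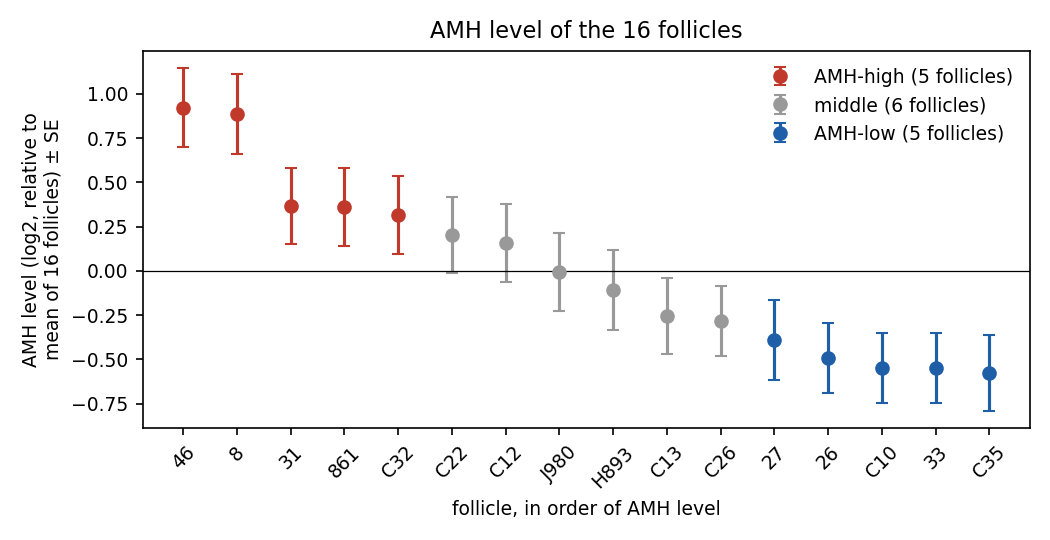
AMH level of each of the 16 follicles on a log2 scale relative to their mean, in order of level, with bars of 1 SE over 3 arrays. AMH-high follicles are at the left and AMH-low follicles at the right; C32 at 0.32 and C22 at 0.20 lie within 1 SE of each other, as do C26 at -0.28 and follicle 27 at -0.39.

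The comparison asked which other genes differ between follicles rich and poor in AMH RNA. The animal is the replicate, so the 5 and 5 follicle levels were compared with limma and adjusted over 9030 genes by Benjamini-Hochberg. No gene passed: 0 genes (0%) had an adjusted p under 0.05, and the smallest adjusted p was 0.111. At an unadjusted p under 0.05 there were 851 genes, 463 with a higher mean in AMH-high follicles (5.13% of genes tested) and 388 with a lower one (4.30%). The 5 AMH-high levels all lay above the 5 AMH-low levels for 79 genes (0.875%) and all below them for 83 genes (0.919%). The median difference over all genes was 0.01, and the median absolute difference was 0.081. At any p, 4769 genes (52.8%) had a higher mean in AMH-high follicles and 4261 (47.2%) a lower one. The result leans on C32: without it, 10 genes passed with a higher and 12 with a lower mean, while leaving out any other single follicle gave 0.

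Of the genes whose groups did not overlap, 12 with a higher mean and 22 with a lower one also varied among the 16 follicles by the F test, as 1020 of all genes (11.3%) did. The 12 with the largest differences in each direction are described here. They were selected because their groups did not overlap, so that property is no support for them, and none passed the adjusted test. The F test covers all 16 follicles and not the difference between the groups. With array error in place of the spread between animals, BUB1B, KIFC1, PUS3, NCAPH, RPL14 and ANK3 did not pass either. Their limma adjusted p-values in that comparison were 0.0578, 0.0571, 0.154, 0.121, 0.103 and 0.152.

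Among the 12 with a higher mean in AMH-high follicles, 5 encode proteins of mitosis. BIRC5, or survivin, is a subunit of the complex that corrects chromosome attachment in mitosis and an inhibitor of apoptosis. Its levels were 0.58, 0.45, 0.79, 0.06 and 0.16 in AMH-high follicles 46, 8, 31, 861 and C32, and -0.04, -0.87, -0.59, 0.00 and -0.34 in AMH-low follicles 27, 26, C10, 33 and C35. The follicles at the facing edges, 861 and 33, lay close together, while 31 and 26 were far apart. The difference of means was 0.78 ± 0.19 (SE; limma adjusted p = 0.255).

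CDCA3, which helps to trigger entry into mitosis, had levels of 0.48, 0.41, 0.40, 0.07 and 0.13 in the AMH-high follicles, in the same order, and -0.07, -0.55, -0.56, -0.13 and -0.22 in the AMH-low follicles. Follicle 861 was again the lowest of the AMH-high group and 27 the highest of the AMH-low group. The difference was 0.60 ± 0.12 (SE; limma adjusted p = 0.221). UBE2C, the ubiquitin-conjugating enzyme of the anaphase-promoting complex, differed in mean by 0.49 ± 0.11, and BUB1B, a kinase of the spindle checkpoint, by 0.42 ± 0.10 (SE). KIFC1, a kinesin of the spindle, averaged 0.15 ± 0.24 in AMH-high and -0.22 ± 0.075 in AMH-low follicles (SD, n = 5 each). Its highest level, 0.57, was in follicle 31, and the next highest AMH-high follicle was at 0.11.

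A second set among the 12 encodes mitochondrial proteins. GLRX5, a glutaredoxin of mitochondrial iron-sulphur cluster assembly, shared the smallest adjusted p of all genes (limma, 0.111). Its levels were 0.26, 0.17, 0.21, 0.48 and 0.09 in AMH-high follicles, and -0.20, -0.40, -0.32, -0.56 and -0.31 in AMH-low follicles. No follicle of either group came near 0 except C32 at 0.09. The difference was 0.60 ± 0.09 (SE). MDH2, the malate dehydrogenase of the citric acid cycle, had levels of 0.04, 0.49, 0.36, 0.37 and -0.03 in AMH-high follicles, and -0.11, -0.40, -0.39, -0.19 and -0.25 in AMH-low follicles. C32 and 27 nearly touched, and the difference was 0.52 ± 0.11 (SE; limma adjusted p = 0.221).

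The remaining 5 act mainly in the nucleus or on RNA, or have no role stated here. RBM48, a protein of minor intron splicing, averaged 0.28 ± 0.38 in AMH-high and -0.38 ± 0.043 in AMH-low follicles (SD, n = 5 each). HMG20B, a chromatin protein, differed by 0.42, WRAP53, which guides telomerase RNA to Cajal bodies, by 0.37, TMEM256, a membrane protein, by 0.34, and PUS3, a pseudouridine synthase, by 0.30. Adjusted p-values of these 5 genes in the limma test lay between 0.255 and 0.388.

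In the other direction JPH4, a junctophilin that tethers the endoplasmic reticulum to the cell membrane, had the largest difference of the 12. Its levels were -0.40, -1.21, -0.70, -0.97 and 0.23 in AMH-high follicles, and 0.48, 0.90, 0.43, 0.61 and 0.60 in AMH-low follicles. Of the AMH-high follicles, 4 lay far below the AMH-low group and C32 lay near it. The difference was -1.22 ± 0.23 (SE; limma adjusted p = 0.208), and without C32 it was -1.43 (limma adjusted p = 0.0190).

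RTRAF, an RNA-binding protein of the tRNA ligase complex, had levels of 0.41, -0.63, -0.29, -1.54 and 0.58 in AMH-high follicles, against 0.64, 0.66, 0.73, 1.03 and 0.78 in AMH-low follicles. The AMH-high follicles were widely spread, with C32 next to follicle 27. The difference of -1.06 ± 0.34 (SE) had an adjusted p of 0.369 in limma.

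Matrix proteins were among the genes with a lower mean. ASPN, or asporin, is a small leucine-rich proteoglycan that binds collagen and TGF-beta. Its levels were -0.06, -0.08, -0.40, -0.44 and 0.06 in AMH-high follicles, and 0.48, 0.26, 0.46, 0.71 and 0.33 in AMH-low follicles. Follicle 26 was the lowest of the AMH-low group and C32 the highest of the AMH-high group. The difference was -0.63 ± 0.12 (SE; limma adjusted p = 0.208). SPARCL1, a secreted matricellular glycoprotein, averaged -0.18 ± 0.20 in AMH-high and 0.28 ± 0.17 in AMH-low follicles (SD, n = 5 each). C1QTNF7, a secreted protein of the C1q and TNF-related family, averaged -0.16 ± 0.21 and 0.30 ± 0.092 in the same groups.

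Signalling and nuclear genes made up most of the rest. GNAI3, the alpha subunit of an inhibitory G protein, had levels of -0.16, -0.32, -0.34, -0.24 and -0.12 in AMH-high follicles, and 0.18, 0.23, 0.58, 0.25 and 0.41 in AMH-low follicles. All AMH-high levels were below 0 and all AMH-low levels above it. The difference was -0.57 ± 0.08 (SE; limma adjusted p = 0.111). NFIB, a transcription factor, showed the same pattern with a difference of -0.52 ± 0.09, and RALB, a small GTPase, with -0.64 ± 0.13 (SE). For RALB, follicle 46 stood apart at -0.52 from the other AMH-high follicles at -0.13 to -0.08.

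NCAPH, a condensin subunit that compacts chromosomes, had a difference of -0.58, opposite in sign to that of the mitotic genes above. ZNF175, a zinc finger protein, differed by -0.46, RPL14, a protein of the large ribosomal subunit, by -0.41, and ANK3, an ankyrin of the membrane skeleton, by -0.41. For ANK3 the AMH-low group was uneven, with follicle 33 at 0.76 and the others at -0.02 to 0.12, and without 33 the difference was -0.26.

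**Figure D2:**
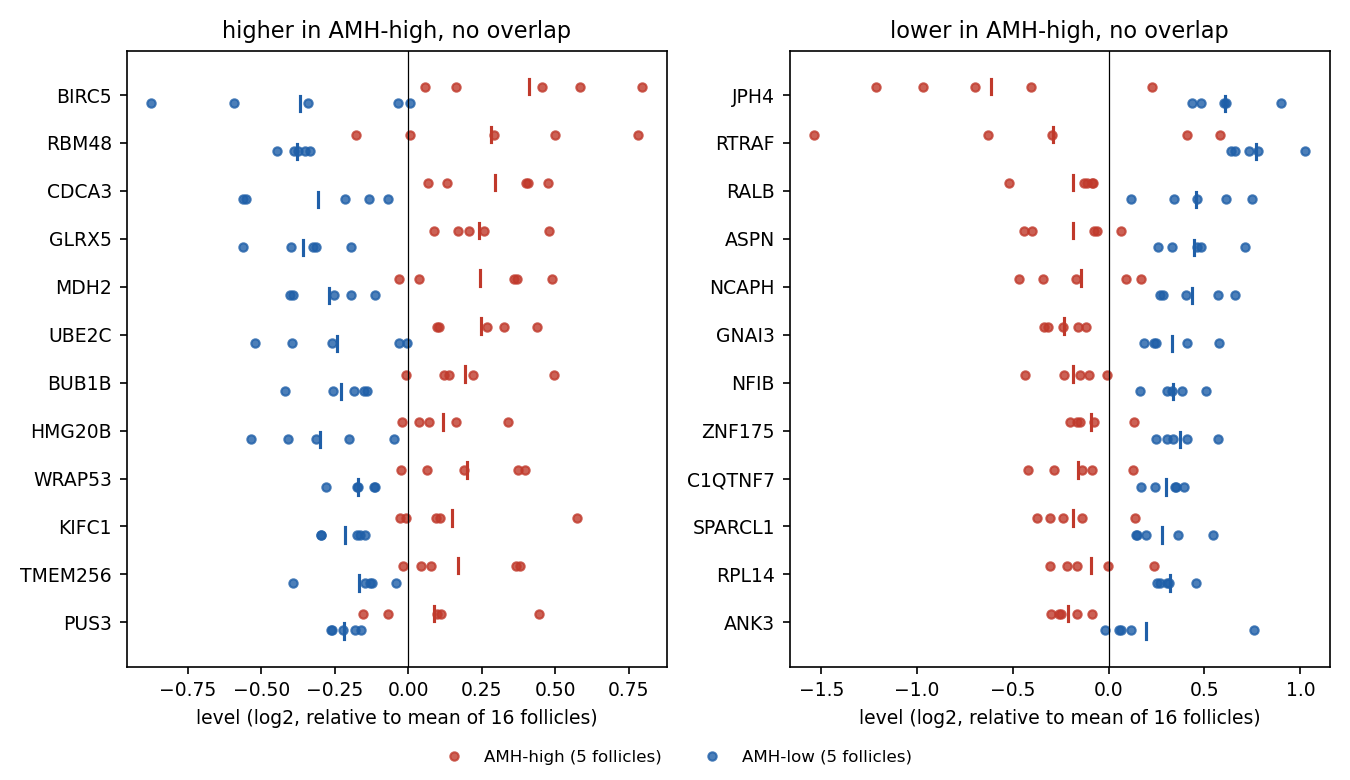
Levels of the 12 genes with the largest higher mean and the 12 with the largest lower mean in AMH-high follicles, among genes whose groups did not overlap and which varied by the F test. Each point is 1 follicle on a log2 scale relative to the mean of 16, AMH-high and AMH-low follicles in different colours; the largest gap between means is that of JPH4, at -1.22.

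Only 3 arrays held an AMH-high and an AMH-low follicle together, and they entered the fitted levels, so they are no independent check. AMH itself was higher in the AMH-high follicle on all 3, by 0.22 for 861 over C10, 0.81 for C32 over 27 and 0.71 for 31 over C10. BIRC5 had ratios of 0.61, 0.23 and 1.22 on the same arrays, GLRX5 0.52, 0.23 and 0.34, and JPH4 -0.91, -0.44 and -1.28. GNAI3 had -0.99, -0.28 and -0.73. For these 4 genes the array of C32 and 27 gave the smallest ratio each time, although it had the largest AMH ratio. Most other genes of the 12 in each direction also had their weakest ratio on the array of C32 and 27, among them RBM48 at 0.06 and NFIB at -0.23. WRAP53, KIFC1, TMEM256, RALB and ANK3 did not. On that array MDH2 had -0.02, NCAPH 0.03 and RPL14 0.16, opposite in sign to their differences, as was WRAP53 at -0.08 for 861 over C10. The same array of C32 and 27 gave the largest ratio for WRAP53, RALB and ANK3, at 0.85, -0.60 and -0.59. Since AMH and every other gene were read from the same arrays, an error of one array can move both. The residuals of the 12 genes with a higher mean correlated with those of AMH between -0.37 and 0.55 over the 24 arrays, 10 of them above 0. Those of the 12 genes with a lower mean correlated between -0.76 and 0.23, with 7 below 0. Over all genes the 5th and 95th percentiles of such correlations were -0.58 and 0.60. The part of shared array error in the differences was not tested.

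Cell cycle genes had the largest share of members with a higher mean at an unadjusted p under 0.05 among the 22 lists of genes described. Of 33 members measured, 13 did so (39.4%, against 5.13% of all genes) and 0 had a lower mean at that level, while 0 passed the adjusted test. Groups did not overlap for 4 members, BIRC5, UBE2C, BUB1B and AURKA (12.1%, against 0.875% of all genes). Of these, AURKA was not shown to vary among follicles beyond array error (F test, adjusted p = 0.352). The median difference of the list was 0.16, against 0.01 over all genes. J980, a follicle in neither group, had low levels of many mitotic genes, but not of KIF11 and CCNB2, at 1.04 and 0.45. Without J980 and its 3 arrays, 13 members still reached an unadjusted p under 0.05, but 2 rather than 4 did not overlap. Over all genes, 51 rather than 79 did not overlap with a higher mean in that setting.

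Members of the list were uneven. CCNB1, the cyclin of mitotic entry, was named after its values were seen. It had levels of 0.55, 0.34, 0.99, 0.33 and -0.11 in AMH-high follicles, and 0.18, -0.72, -0.78, -0.34 and -0.71 in AMH-low follicles. C32 and 27 crossed, so the groups overlapped, and the difference was 0.89 ± 0.22 (SE; limma adjusted p = 0.259). PLK1, a mitotic kinase, differed by 0.51, CCNA2, the cyclin of S phase and early mitosis, by 0.44, and AURKA, a spindle kinase, by 0.20. The replication licensing subunits MCM2, MCM3, MCM5 and MCM6 had differences of -0.04, -0.02, -0.07 and -0.04, against 0.18 for MCM4 and 0.16 for MCM7. MKI67, a general proliferation antigen, differed by 0.03 ± 0.20 (SE). Mitotic members were not all alike: KIF11, a spindle kinesin, was at -0.39 ± 0.35 (SE), BUB1, a checkpoint kinase, at -0.21 and CCNB2, another mitotic cyclin, at 0.07. H2AZ1, a histone variant, and CCND2, a cyclin of the G1 phase, differed by 0.44 and 0.36.

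The list mean was 0.06, 0.10, 0.26, 0.07 and -0.02 in AMH-high follicles 46, 8, 31, 861 and C32. It was -0.04, -0.12, -0.19, -0.04 and -0.03 in AMH-low follicles 27, 26, C10, 33 and C35. Of these 10 follicles 31 had the highest list mean and C10 the lowest, and neither had the most extreme AMH. In the middle follicles C22, C12, J980, H893, C13 and C26 the list mean was 0.23, 0.10, -0.41, 0.08, 0.01 and -0.06. Follicles 46 and 8, with the highest AMH, were close to 861 in the list mean. Single members differed among them, such as KIF11 at -0.92, 0.67 and -1.17 in 46, 8 and 861.

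**Figure D3:**
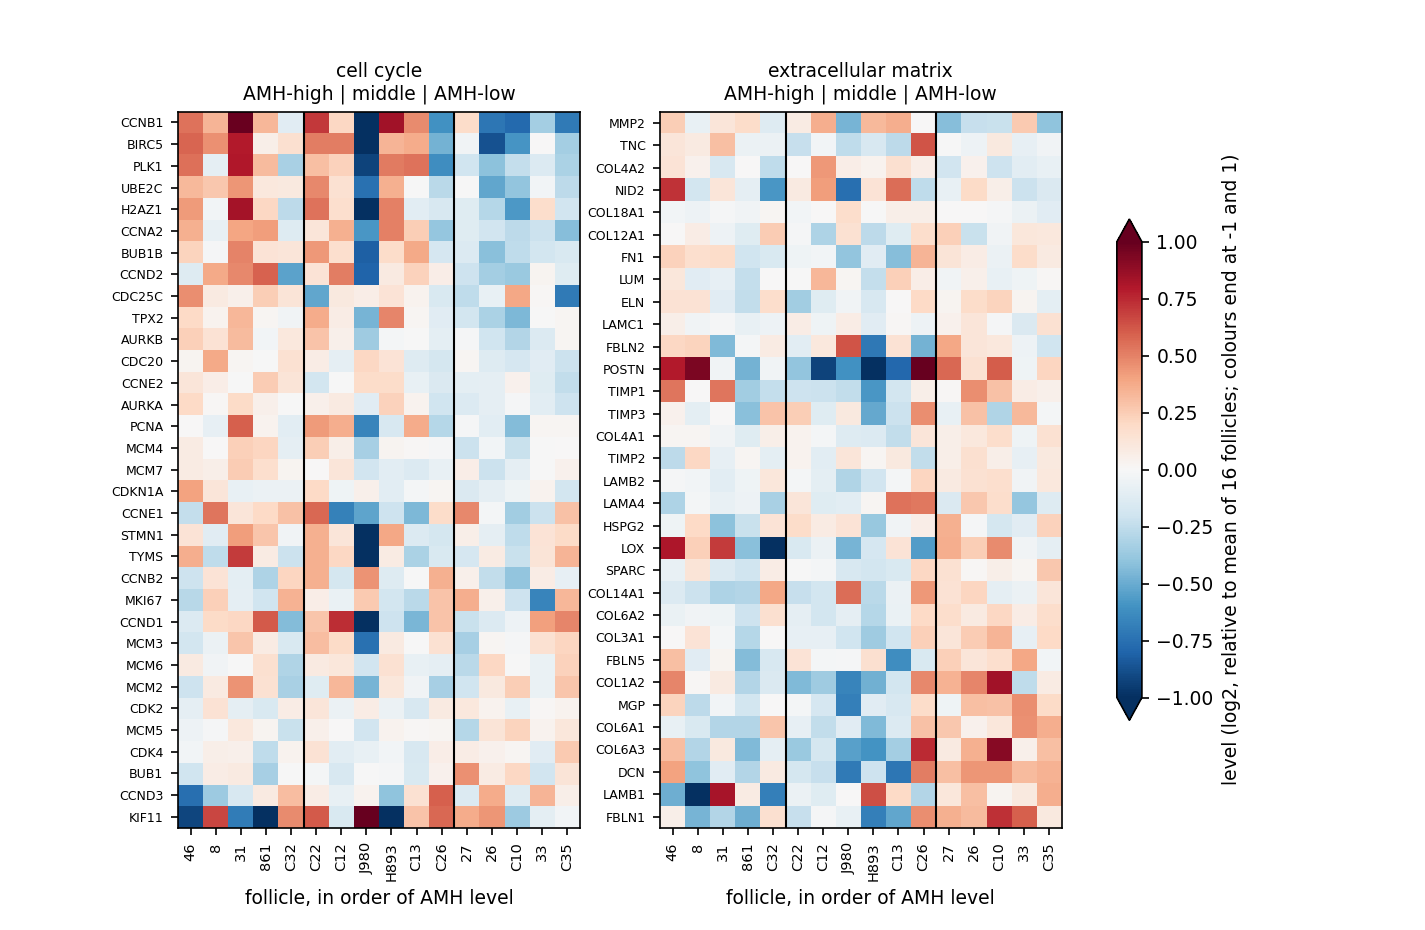
Levels of the measured members of the cell cycle list and the extracellular matrix list in all 16 follicles, ordered by AMH level from high at the left to low at the right, with colour for the log2 level relative to the mean of 16. The 33 cell cycle members have a median difference of 0.16 and the 32 matrix members one of -0.11; J980, in the middle group, is low for many mitotic genes.

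Granulosa cell genes share their cell of origin with AMH. In AMH-high follicles 14 of 20 measured members had a higher mean (70%, against 52.8% of all genes). One of them, the orphan receptor NR5A2, did so at an unadjusted p under 0.05 (5.00%, a share near the 5.13% of all genes), and none passed the adjusted test. The list mean was -0.07 to 0.19 in AMH-high and -0.20 to 0.08 in AMH-low follicles, so the groups overlapped. The labelled tissue is the whole follicle, and its markers were measured only as ratios between follicles, so their abundance is not known here.

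FSHR, the receptor for FSH, had levels of 0.02, 0.11, -0.15, -0.48 and 0.21 in AMH-high follicles, and -0.38, 0.19, -0.21, -0.22 and 0.04 in AMH-low follicles. The groups lay over each other. The difference was 0.06, with a 95% confidence interval of -0.26 to 0.38. CYP19A1, the aromatase that makes oestradiol, differed by 0.01, with an interval of -0.15 to 0.16. HSD17B1, which makes oestradiol from oestrone, differed by 0.08 (interval -0.05 to 0.21). Leaving out single follicles changed the sign of the FSHR and CYP19A1 differences. The intervals come from the spread of the 10 follicle levels alone. For CYP19A1 the SE of the difference was 0.07 from that spread and 0.09 from array error. Neither FSHR nor CYP19A1 was shown to vary among follicles beyond array error (F test, adjusted p = 0.261 and 0.845). A lack of difference is therefore not shown for them.

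Genes of the activin and inhibin system had higher means with wide spread. INHBA, a subunit that activin A and inhibin A share, had levels of 0.52, 0.49, 0.17, 1.04 and -0.12 in AMH-high follicles, and 0.10, -0.55, -0.06, -0.30 and 0.47 in AMH-low follicles. Follicle 861 was highest, and C35, with the lowest AMH, was level with 8 and 46. The difference was 0.49 (95% confidence interval -0.02 to 0.99; exact two-sided permutation p = 0.0952). FST, encoding the activin-binding protein follistatin, had 0.44, 0.32, 0.26, 1.11 and -0.06 in AMH-high follicles, and 0.30, -0.69, -0.45, 0.05 and 0.35 in AMH-low follicles. Its order of follicles was close to that of INHBA, with 861 at the top and 26 at the bottom. The difference was 0.50 (interval -0.04 to 1.05; exact two-sided permutation p = 0.151). INHA, the other subunit of inhibin, differed by 0.27 (interval -0.34 to 0.87), by 0.15 without C32 and by 0.48 without 31. Without 861 the difference of FST was 0.33.

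In the wider list of activins, inhibins, TGF-beta and BMP family genes, 9 of 16 measured members had a higher mean and 7 a lower one, with a median of 0.05. The share with a higher mean, 56.25%, was near the 52.8% of all genes. BMP7, a bone morphogenetic protein, and SMAD2, which carries the activin signal, reached an unadjusted p under 0.05 (12.5% of members, against 5.13% of all genes). BMP7 averaged 0.29 ± 0.29 in AMH-high and -0.13 ± 0.21 in AMH-low follicles (SD, n = 5 each). SMAD2 averaged 0.13 ± 0.17 and -0.16 ± 0.16 in the same groups. Neither passed the adjusted test (limma adjusted p = 0.402 for both).

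The measured genes among the receptors and targets of AMH were close to even. BMPR1A, ACVR1, SMAD1, SMAD5, SMAD9 and ID4 were not measured. AMHR2, the receptor of AMH, had levels of 0.17, 0.05, -0.18, 0.12 and -0.26 in AMH-high follicles, and 0.10, 0.09, -0.23, -0.20 and 0.16 in AMH-low follicles. Both groups covered the same range. The difference was -0.002, with a 95% confidence interval of -0.24 to 0.24, and its sign changed under other settings. BMPR1B, a type I receptor of BMPs, differed by -0.12 (interval -0.42 to 0.18), and by -0.05 without follicle 46 and -0.21 without C32. BMPR2, a type II receptor of BMPs, differed by 0.03 (interval -0.20 to 0.26). AMHR2, BMPR1B and BMPR2 were not shown to vary among follicles beyond array error (F test, adjusted p = 0.392, 0.159 and 0.624). Even levels and a lack of signal cannot be told apart for them.

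The BMP target genes ID1, ID2 and ID3, inhibitors of basic helix-loop-helix transcription factors, differed by 0.10, 0.04 and -0.05, with intervals of -0.10 to 0.29, -0.25 to 0.33 and -0.24 to 0.15. The signs of ID2, ID3 and BMPR2 changed when single follicles were left out, and ID1 ranged from 0.05 without follicle 26 to 0.15 without 8. ID1, ID2 and ID3 were also not shown to vary among follicles beyond array error (F test, adjusted p = 0.230, 0.078 and 0.051). In the whole list of AMH receptors and SMAD signalling, 5 of 10 measured members had a higher and 5 a lower mean. Differences of these members ran from -0.12 to 0.23, with a median of 0.01. None reached an unadjusted p under 0.05. In this list SMURF2 and BAMBI, both negative regulators of the pathway, had the smallest p, with differences of 0.11 and -0.09.

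Of the transcription factors known to act on the AMH promoter, 4 of 14 were measured. GATA4 differed by 0.07 (95% confidence interval -0.09 to 0.22), NR5A1, or SF-1, by 0.15 (interval -0.17 to 0.46), ZFPM2, a cofactor of GATA4, by 0.01 and SP1 by -0.09. For NR5A1 the AMH-low follicle 33 lay at -0.67 and all other members of both groups lay between -0.11 and 0.17. Without follicle 33 the difference was 0.0017. That of GATA4 was 0.03 without 861 and 0.11 without C10. Of 32 genes of AMH and follicle biology picked to be named, 16 were measured, and values of the others are not given here.

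**Figure D4:**
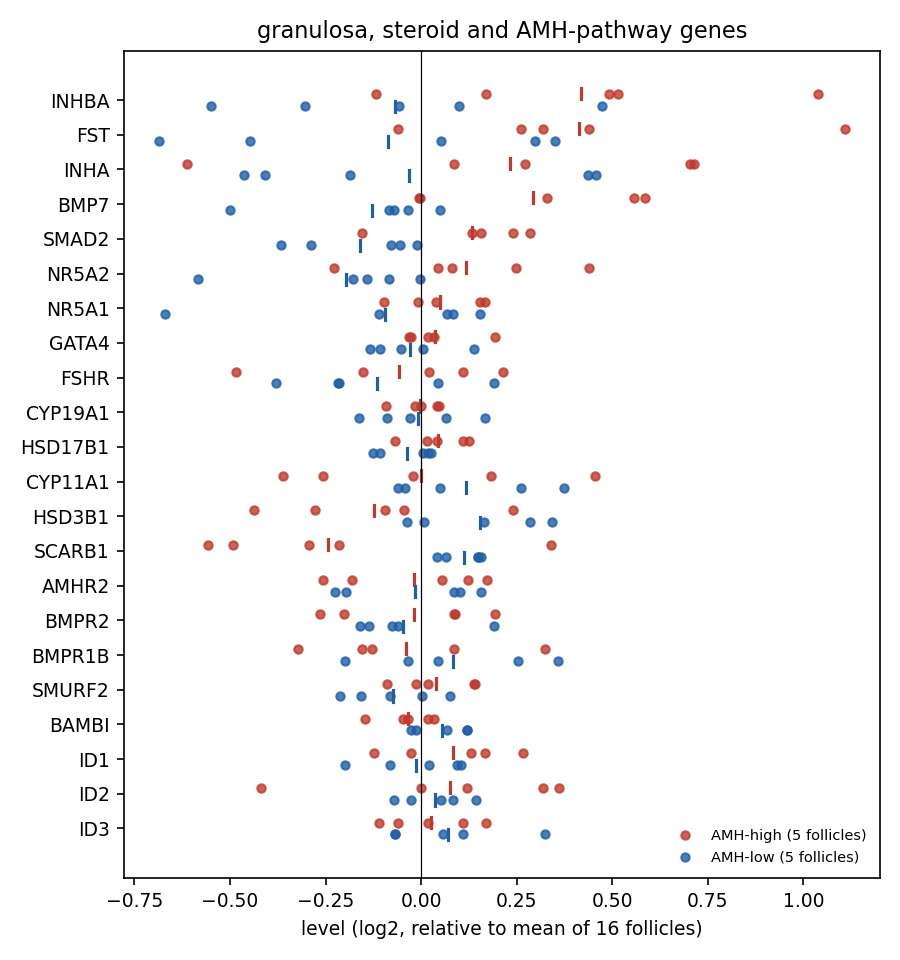
Levels of 22 measured genes of AMH and activin signalling, granulosa function and steroid synthesis, on a log2 scale relative to the mean of 16 follicles. Each point is 1 AMH-high or AMH-low follicle and lines mark group means; the groups overlap for every gene shown, and the largest differences are those of FST at 0.50 and INHBA at 0.49.

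Genes of progesterone synthesis and of theca cells, the androgen-making layer outside the granulosa, mostly had lower means in AMH-high follicles. Of 14 theca members measured, 11 had a lower mean (78.6%, against 47.2% of all genes), with a list median of -0.14. Among them 2, DCN and SCARB1, did so at an unadjusted p under 0.05 (14.3%, against 4.30% of all genes). The theca members CYP17A1, STAR and LHCGR were not measured. DCN, COL1A2, COL3A1 and LUM are also in the extracellular matrix list, so the theca and matrix counts share genes. The list mean was -0.17 to 0.08 in AMH-high and -0.07 to 0.18 in AMH-low follicles. HSD3B1, which converts pregnenolone to progesterone, had levels of -0.44, -0.09, -0.28, -0.05 and 0.24 in AMH-high follicles, and 0.17, 0.29, -0.04, 0.01 and 0.34 in AMH-low follicles. C32 lay inside the AMH-low range and the other 4 below it. The difference was -0.28 (exact two-sided permutation p = 0.0714). SCARB1, the HDL receptor that takes up cholesterol, differed by -0.36 (exact two-sided permutation p = 0.0556), with follicle 8 at 0.34 against -0.56 to -0.22 in the other AMH-high follicles. CYP11A1, the side-chain cleavage enzyme, differed by -0.12 (95% confidence interval -0.46 to 0.22), by -0.03 without follicle 31 and by -0.23 without 861.

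The overlapping list of gonadotrophin response and luteinisation had 11 of 14 members with a lower mean, and the short list of corpus luteum genes had 5 of 5. In each, SCARB1 was the 1 member at an unadjusted p under 0.05 (7.14% and 20%, against 4.30% of all genes), so both counts rest on the same gene. TNFAIP6, a matrix protein induced by the ovulatory surge, had levels from -1.56 in follicle 31 to 1.84 in 861 among AMH-high follicles and from -1.30 in 27 to 1.59 in C10 among AMH-low follicles. Each group spanned most of the range of these 10 follicles, while J980 and C22, in neither group, were lower at -2.40 and -1.66. The difference was 0.36 (interval -1.12 to 1.83), near 0 without 27 and 0.88 without 31. In the cholesterol list 15 of 22 members had a lower mean, 3 of them at an unadjusted p under 0.05 (13.6%, against 4.30% of all genes). The 1 member with a higher mean at that level (4.55%) was no more than the 5.13% of all genes. NPC2, a carrier of cholesterol in lysosomes, differed by -0.41, and MVD, an enzyme of cholesterol synthesis, by -0.23.

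Extracellular matrix genes are mostly products of the theca and stroma. In AMH-high follicles 27 of 32 measured members had a lower mean (84.4%, against 47.2% of all genes). Of these, 6 did so at an unadjusted p under 0.05 (18.8%, against 4.30% of all genes) and 0 of the higher ones, with a median of -0.11. None passed the adjusted test, and groups overlapped for all 32. FBLN1, a fibulin of elastic fibres, had levels of 0.06, -0.47, -0.29, -0.49 and 0.16 in AMH-high follicles, and 0.35, 0.31, 0.73, 0.60 and 0.10 in AMH-low follicles. C32 and C35 crossed. The difference was -0.63 ± 0.16 (SE; limma adjusted p = 0.259). DCN, or decorin, a proteoglycan of collagen fibrils, had 0.40, -0.40, -0.12, -0.30 and 0.09 in AMH-high follicles, and 0.30, 0.44, 0.44, 0.32 and 0.35 in AMH-low follicles. Follicle 46, with the highest AMH, had as much DCN as the AMH-low group.

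Among collagens, COL6A1 differed by -0.36, COL6A3 by -0.43, COL6A2 by -0.18, COL1A2 by -0.27 and COL3A1 by -0.20. Of the basement membrane collagen IV chains, COL4A1 differed by -0.10 and COL4A2 by 0.06. The list mean was 0.14, -0.03, 0.01, -0.20 and -0.05 in AMH-high follicles, and 0.11, 0.16, 0.17, 0.05 and 0.08 in AMH-low follicles. Of these 10 follicles 861 was lowest, and 46 lay within the AMH-low range. In the middle follicles C22, C12, J980, H893, C13 and C26 the list mean was -0.07, -0.07, -0.16, -0.22, -0.09 and 0.18. Without 861, 21 rather than 27 members had a lower mean, and 3 rather than 6 did so at an unadjusted p under 0.05.

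**Figure D5:**
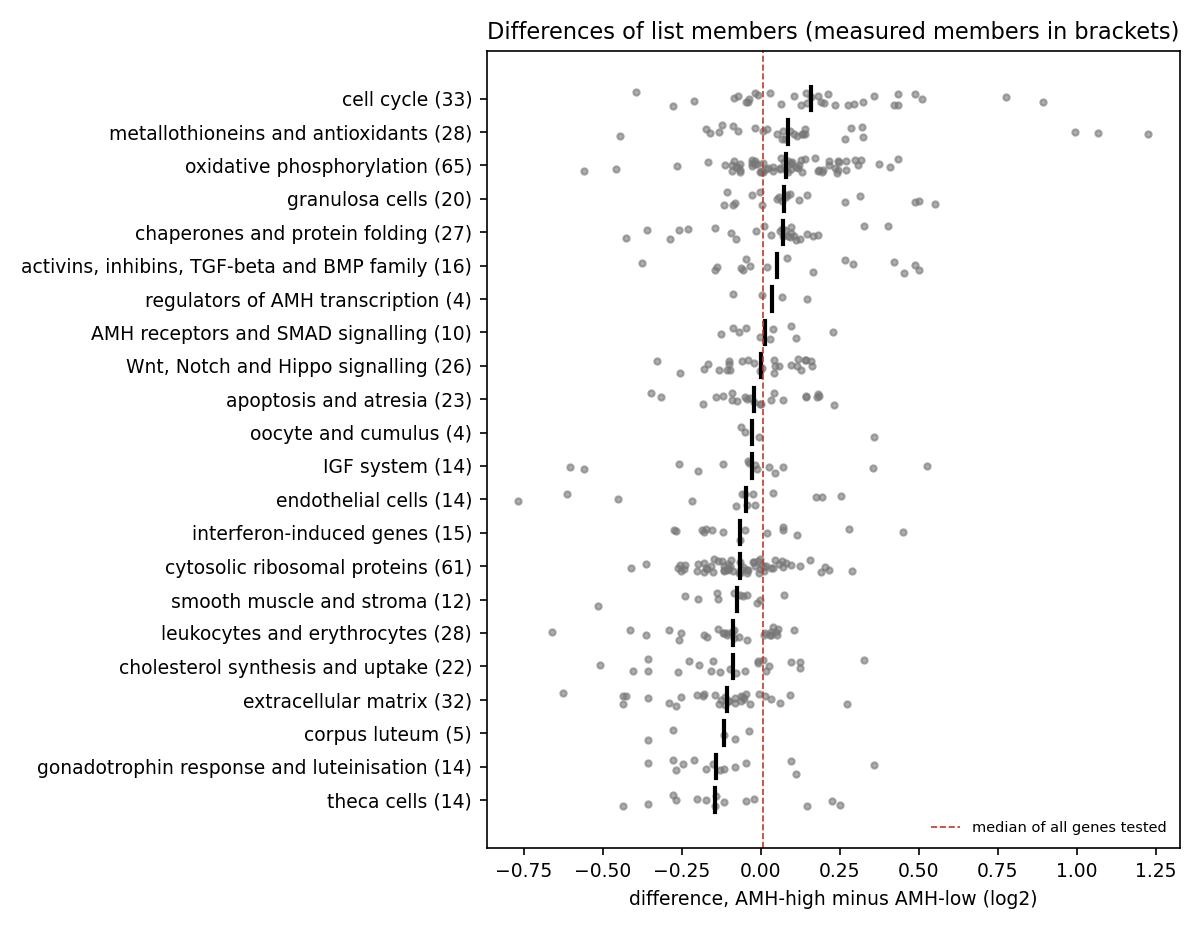
Differences of mean level (AMH-high minus AMH-low, log2) of the measured members of 22 gene lists. Each point is 1 gene and the mark on each row is the list's median, which runs from -0.14 for theca cells to 0.16 for the cell cycle, against 0.01 for all 9030 genes.

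Markers of other cell types overlapped between the groups, with 1 exception in the endothelial list. Smooth muscle and stroma genes had a lower mean for 11 of 12 members, with a median of -0.07 and a list mean of -0.11 to 0.07 in AMH-high and 0.05 to 0.15 in AMH-low follicles. S100A4, a calcium-binding protein of fibroblasts and leukocytes, was its 1 member at an unadjusted p under 0.05 (8.33%, against 4.30% of all genes), with a difference of -0.52. Endothelial genes had a lower mean for 10 of 14 members, with a list mean of -0.13 to 0.10 in AMH-high and -0.05 to 0.18 in AMH-low follicles. Among them 1 member did not overlap between groups (7.14%, against 0.919% of all genes). VCAM1, an adhesion molecule also found outside endothelium, had levels of -0.38, -0.27, -0.33, -0.32 and -0.08 in AMH-high follicles, and 0.21, 0.09, 0.43, 0.21 and -0.06 in AMH-low follicles. C32 and C35 were nearly equal. Its difference was -0.45 ± 0.09 (SE; limma adjusted p = 0.221). VCAM1 was not shown to vary among follicles beyond array error (F test, adjusted p = 0.308). A single level of it had an SE of 0.34 to 0.38. With array error in place of the spread between animals, the SE of the difference was 0.24 (limma adjusted p = 0.444). The lack of overlap for VCAM1 is therefore within what array error could give. CLDN5, the tight junction protein of endothelium, differed by -0.61 (95% confidence interval -1.33 to 0.10).

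Leukocyte and erythrocyte genes had a lower mean for 18 of 28 members (64.3%, against 47.2% of all genes), 0 of them at an unadjusted p under 0.05. Their list mean was -0.24 to 0.34 in AMH-high and -0.04 to 0.15 in AMH-low follicles. C32 was the follicle at 0.34 and the other AMH-high follicles were below 0. IGHG1, the heavy chain of IgG, had levels of -0.84, -0.80, -1.12, 0.00 and 1.11 in AMH-high follicles, and 0.29, 0.93, -0.25, 0.54 and 0.15 in AMH-low follicles. JCHAIN, which joins immunoglobulin units, likewise had its highest level in C32, at 0.72, against -0.73 to -0.15 in the other AMH-high follicles. C32 was thus the highest of these 10 follicles for both immunoglobulin genes, and it was also the AMH-high follicle nearest to the boundary. The part of blood cells in the differences was not tested. Interferon-induced genes were split within both groups, with a list mean of 0.72 in 861 against -0.36 to -0.05 in the other AMH-high follicles, and 0.66 in 33 and 0.38 in C35 against -0.46 to -0.14 in the other AMH-low follicles. Of the oocyte and cumulus list 4 members were measured, with differences from -0.06 to 0.36.

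The metallothioneins, small metal-binding proteins induced by zinc, stress and steroids, had large differences with wide spread. MT1A had levels of 1.01, -0.24, 0.91, 1.83 and 0.63 in AMH-high follicles, and 0.68, 0.17, -1.10, -0.70 and -1.03 in AMH-low follicles. Follicle 8, among the highest for AMH, lay below 27 and 26. The difference was 1.23 ± 0.42 (SE; limma adjusted p = 0.402). MT2A and MT3, named after their values were seen, differed by 1.07 ± 0.41 and 0.99 ± 0.37 (SE). Metallothioneins are closely related in sequence, so their features may share signal. In the list of metallothioneins and antioxidants, 20 of 28 members had a higher mean, 5 of them at an unadjusted p under 0.05 (17.9%, against 5.13% of all genes). TXNRD1, which reduces thioredoxin, differed by 0.29 ± 0.08 (SE).

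Genes of oxidative phosphorylation had a higher mean for 45 of 65 members (69.2%, against 52.8% of all genes). Among them 10 did so at an unadjusted p under 0.05 (15.4%, against 5.13% of all genes). A lower mean at that level was found for 2 members (3.08%, against 4.30% of all genes). The median was 0.08. ATP5F1B, the catalytic subunit of ATP synthase, had levels of 0.10, 0.23, 0.48, 0.22 and -0.24 in AMH-high follicles, and -0.22, -0.15, -0.29, -0.33 and -0.39 in AMH-low follicles. C32 alone among the AMH-high follicles lay inside the AMH-low range. The difference was 0.43 ± 0.12 (SE; limma adjusted p = 0.298), and 0.53 without C32 (limma adjusted p = 0.0460). CYC1, or cytochrome c1, differed by 0.41 ± 0.11 (SE). The alpha subunit ATP5F1A and UQCRH went the other way, at -0.56 and -0.46.

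Cytosolic ribosomal proteins were lower in mean for 43 of 61 members (70.5%, against 47.2% of all genes). Groups did not overlap for 6 lower members (9.84%, against 0.919% of all genes) and 1 higher member (1.64%, against 0.875%). The 6 were RPL14, RPL30, RPL9, RPL34, RPL23 and RPSA, with differences of -0.41, -0.36, -0.25, -0.24, -0.18 and -0.10. The higher one was RPLP2, an acidic stalk protein, at 0.22. These differences were small beside those above, with a list median of -0.07, and ribosomal protein genes have many processed copies, so their features may share signal. In the 6 lower genes the residuals correlated with those of AMH at -0.53, -0.59, -0.57, -0.43, -0.74 and -0.55 over the 24 arrays, in the order just given. RPL14 and RPL30 varied among follicles beyond array error (F test, adjusted p = 0.040 and 0.021). RPL9, RPL34, RPL23, RPSA and RPLP2 were not shown to do so (F test, adjusted p = 0.57, 0.19, 0.30, 0.33 and 0.071).

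The other lists had few members at an unadjusted p under 0.05. In the IGF list 5 of 14 members had a higher mean and 9 a lower one, 2 of these at an unadjusted p under 0.05 (14.3%, against 4.30% of all genes). IGFBP6, a binding protein with preference for IGF2, had levels of 0.14, -0.35, -0.21, -0.21 and -0.26 in AMH-high follicles, and 0.32, 0.64, 0.94, 0.01 and 0.21 in AMH-low follicles. Follicle 46 was the AMH-high follicle that lay inside the AMH-low range, and the difference was -0.60 ± 0.17 (SE; limma adjusted p = 0.310). INSR, the insulin receptor, differed by -0.56 ± 0.18 (SE). In the apoptosis list BCL2 and BCL2L1, both inhibitors of apoptosis, differed by -0.32 and -0.35, and 13 of 23 members had a lower mean. Neither BCL2 nor BCL2L1 was shown to vary among follicles beyond array error (F test, adjusted p = 0.82 and 0.10).

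Chaperones had 18 of 27 members with a higher mean, 2 at an unadjusted p under 0.05 in each direction (7.41%, against 5.13% of all genes for a higher and 4.30% for a lower mean), which is near the background. CCT7, a subunit of the cytosolic folding chamber, differed by 0.40, and DNAJB11, a chaperone of the endoplasmic reticulum, by -0.42. In the Wnt, Notch and Hippo list 13 of 26 members lay on each side. HEY2, a Notch target, and LRP5, a Wnt co-receptor, did not overlap between groups (7.69% of members, against 0.875% of all genes), with differences of 0.16 and 0.12. Both differences were small, and the levels of HEY2 in AMH-high follicles lay between -0.02 and 0.03. HEY2 was not shown to vary among follicles beyond array error (F test, adjusted p = 0.200).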

How the data were processed

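Total RNA of 16 follicles was hybridised to 24 two-colour arrays and scanned with an Axon instrument, per the labels' protocols. The deposited table holds 1 log ratio per feature and array, computed by the authors from both channels and read here as log2. The sources used here do not give how background, spots and normalization were handled. Signal over background is unknown, and 0 columns of other samples were left unused.

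Of 17418 features, 13605 had 1 gene symbol in the platform annotation of 2007, 829 had several and 2984 had none. Of those with 1 symbol, 13575 were found by gene ID in RefSeq's genes for ARS-UCD2.0. Each array was centred on its median and all features of a symbol were averaged. Genes with values on at least 20 arrays were fitted by least squares with follicle effects (1 for Cy5, -1 for Cy3) and a dye term, and levels were centred over the 16 follicles. The 5 highest and 5 lowest follicles by AMH formed the groups. Their levels were compared with limma 3.58.1 in R 4.3.3, adjusted by Benjamini-Hochberg at 0.05. Follicle levels share errors through the arrays, which this test does not model. Adjusted p-values of the F test came from the array-level fit. Single genes were tested by exact permutation of the 10 follicles over 252 splits, where 0.00794 is the smallest possible p. The comparison was tested on simulated data.

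The groups, 22 gene lists (460 of 642 genes measured), tests and naming rule were chosen with earlier results of these data known. The rule named the 12 genes per direction described in the text, 2 members of each list, those of smallest p, and 32 genes of AMH and follicle biology where measured. Any other gene was named once its values were known. Alternative settings varied the centring, scaling, minimum number of arrays, features per gene, dye term, moderation, error model, AMH as a continuous term, and the follicles or arrays included. Plots used matplotlib 3.10.9 under Python 3.11.15.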

Additional observations from a re-analysis of the deposited data

Results flagged for a closer look

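In 7 of 148 sets of 5 follicle levels of a named gene, 1 follicle lay far from the other 4 by Dixon's criterion, which chance meets in about 1 set in 20. Among AMH-high follicles, KIFC1 was at 0.57 in follicle 31 and between -0.03 and 0.11 in the others. RALB was at -0.52 in follicle 46 and between -0.13 and -0.08 in the others. IGFBP6 was at 0.14 in follicle 46 and between -0.35 and -0.21 in the others.

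Among AMH-low follicles, ANK3 was at 0.76 in follicle 33 and between -0.02 and 0.12 in the others. RPLP2 was at -0.29 in follicle 33 and between -0.13 and -0.08 in the others. BMPR2 was at 0.19 in follicle 33 and between -0.16 and -0.06 in the others. BMP7 was at -0.50 in follicle 26 and between -0.08 and 0.05 in the others. Of the 7 sets, 3 concerned follicle 33 and 2 follicle 46, while J980, which is in neither group, does not enter them.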

How the results depend on the processing

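The counts of genes with an adjusted p under 0.05 stayed at 0 in each direction under other centring, scaling, array minimums, 1 feature per gene, no dye term, no moderation, all 16 follicles in 3 groups, and without J980. With AMH as a continuous term over the 16 follicles, 1 gene passed with a positive slope, SERF1B (0.68, limma adjusted p = 0.0245), and 0 with a negative one. With array error in place of the spread between animals, 114 genes were higher and 87 lower, a comparison of these RNA samples that holds no animal spread. Leaving out 1 follicle gave 0 to 10 genes higher and 0 to 12 lower, all from leaving out C32.

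Counts of genes whose groups did not overlap were 51 to 90 higher and 58 to 83 lower under the other settings, with 51 and 67 without J980, and 105 to 246 higher and 103 to 252 lower with 1 follicle left out, where fewer levels have to separate. Without the dye term 9 of 10 follicles kept their AMH group, as 9 did without J980, and 8 to 10 did with 1 array left out. Each AMH feature alone was not run, because AMH had 1 feature.

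Of the named genes, those that changed sign had differences near 0 or wide spread. AMHR2 moved to 0.00065 with the array mean as centre. With 1 feature per gene ID2 moved to -0.0745 and KIT to 0.0222, and without J980 ID2 moved to -0.0223. The continuous term gave slopes of 0.0682 for AMHR2, -0.00676 for BMPR2, 0.0332 for CYP11A1, -0.0257 for CYP19A1, 0.00199 for ID3 and -0.0678 for TNFAIP6. With 1 follicle left out, differences ranged from -0.0548 to 0.0574 for AMHR2, -0.0245 to 0.0900 for BMPR2, -0.033 to 0.0495 for CYP19A1, -0.0107 to 0.164 for FSHR, -0.0321 to 0.163 for ID2, -0.0818 to 0.0175 for ID3 and -0.0011 to 0.875 for TNFAIP6.

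No paired analysis was possible because the AMH groups hold different animals and the replicate numbers count the arrays of 1 follicle. The groups rest on 1 feature, 3 arrays a follicle and levels whose SE exceeds the gaps at both boundaries.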

Other observations

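Without C32, the AMH-high follicle nearest to the boundary, 22 genes passed limma with an adjusted p between 0.019 and 0.046, in 4 AMH-high against 5 AMH-low follicles. They were named after their values were seen, and they come from 1 of 10 fits that each left out a follicle, so they are values and not calls of the comparison. MRPS16 and MRPL17, proteins of the mitochondrial ribosome, differed by 0.77 ± 0.10 and 0.50 ± 0.06 (SE), against 0.61 and 0.37 with C32 included. DRG1, a GTPase linked to translation, differed by 0.65 ± 0.08, and TSR3, which modifies ribosomal RNA, by 0.72 ± 0.10 (SE). EIF2A, an alternative initiation factor, differed by -0.48 ± 0.07 (SE).

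Secreted and membrane proteins were among those with a lower mean in AMH-high follicles. FMOD, or fibromodulin, a proteoglycan of collagen fibrils related to asporin, differed by -0.98 ± 0.12 (SE), against -0.77 with C32. A2ML1, a protease inhibitor of the alpha-2-macroglobulin family, differed by -0.82 ± 0.10 without C32 and by -0.72 with it, and EPHX1, the microsomal epoxide hydrolase, by -0.74 ± 0.09 and -0.57. For each of these genes limma's adjusted p with all 10 follicles was between 0.111 and 0.402.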
